A study of Mus musculus with 2 samples.

Results

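The genes described here are 87 of the 46983 rows of the count table, all on mouse chromosome 14. Their starts lie in the first 10 Mb of the chromosome (49 genes) or between 40 and 50 Mb (38 genes). They were chosen by gene start in the GENCODE annotation of GRCm38 and by a raw count of at least 25 in the knockdown or the control library, leaving out Otx2 and Bmp4. The annotation placed 437 rows of the table in these stretches at any count, 193 in the first and 244 in the second. Because raw counts of the same libraries entered the choice, and the stretches were proposed with results of these data known, the values below are descriptions without a test. The stretches were named as flanks of a block at 50 to 80 Mb in which most genes had lower counts in the knockdown library. That name fitted the second stretch by position, while the first was separated from the block by the genes at 10 to 40 Mb.

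The study compared 2 RNA sequencing libraries of total RNA from 46C cells. This line of mouse embryonic stem cells holds a fluorescent reporter at the Sox1 locus. Both cultures were grown on feeder cells, in a medium with fetal bovine serum and leukaemia inhibitory factor. The knockdown library came from cells infected with a pLKO.1-TRC vector whose short hairpin targets linc1557, a long noncoding RNA, and the control library from cells labelled as carrying a control hairpin. Puromycin selection and the picking of stably infected clones preceded the analysis. The labels do not say how many clones each library held. There was 1 library per group, so no spread between cultures or clones can be given and no test was made.

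The first stretch of chromosome 14 is known for a large set of near-identical, tandemly repeated genes with names of the form Gm and a number. This end of the chromosome is the home of the alpha-takusan family, first described for effects on synaptic activity. The second stretch holds single-copy genes of general cell functions, among them a proteasome ATPase, a DNA replication factor, mitotic and secretory proteins and cytoskeletal regulators. It also holds processed pseudogenes, which are copies of spliced messenger RNAs reinserted in the genome and often almost identical to their parent gene.

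Ratios are knockdown over control after TMM normalisation, with exact 95% intervals that cover counting error only. The word called is kept for genes at least 2-fold apart between the libraries whose interval left out 1. Fewer cells of a type and less RNA per cell cannot be told apart in such libraries. Of the 87 genes, 1 was called higher (1.15%) and 6 lower (6.90%), and 80 were not called. Among all 15850 tested genes, 4.68% were called higher and 9.48% lower. The share of these genes called lower was thus near, and below, the background. Their ratios nonetheless lay mostly on the lower side. A log2 ratio below 0 was found for 71 of 87 genes (81.6%), against 48.1% of all tested genes. The median log2 ratio was -0.42 (quartiles -0.67 and -0.16), while that of all tested genes was 0.02 (quartiles -0.35 and 0.33). Of the 71 genes, 38 are among 41 near-identical models, described below, whose counts may not be independent. Without these models, 33 of 46 genes lay below 0, with a median of -0.26. Over all 87 genes, the counting interval lay wholly below 0 for 48, wholly above it for 6 and included it for 33. Intervals were not counted in this way over all tested genes, so these numbers have no background beside them. Because the stretches were proposed with such ratios in view, nothing is read from these shares about the stretches against the genome.

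The feeder fibroblast markers in the same libraries differed as well. Of 30 markers, 19 were called lower and none higher, and their summed level was 2407 CPM (counts scaled to library size) in the knockdown library and 4478 CPM in the control library. None was at 0 in either library, and their part in the ratios on chromosome 14 was not tested. Of 12 embryonic stem cell markers none was called, with a summed level of 3500 CPM in the knockdown library and 2892 CPM in the control library.

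The first 41 genes of the first stretch were predicted protein-coding models, lying between 3.05 and 7.64 Mb. Nearly identical sequence is what sets them apart, so it is shown before their counts. In 33 of the 41 models a transcript held the first 20 coding bases of Gm2974, and the 120 bases from that point were compared. Whether that point was the annotated coding start of each model was not checked. Position by position, without gaps, these 33 models differed from the commonest base at 1 to 25 of the 120 places, with a median of 2. The first 20 places were alike by choice, and models without them were left out. The 5 shown are the 2 with the highest counts in either library (Gm2974 and Gm3558), a further model with above-median counts (Gm3002), the model with the highest ratio (Gm3248) and the model called lower (Gm3526). They are GENCODE transcript sequences of the GRCm38 build, on chromosome 14, and capitals mark bases that differ from the commonest base of the 33 models.
Gm2974: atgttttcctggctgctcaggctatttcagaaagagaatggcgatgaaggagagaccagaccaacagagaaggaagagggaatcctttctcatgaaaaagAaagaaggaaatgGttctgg
Gm3558: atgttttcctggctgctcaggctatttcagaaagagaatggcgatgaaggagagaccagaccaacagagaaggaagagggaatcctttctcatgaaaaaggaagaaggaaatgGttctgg
Gm3002: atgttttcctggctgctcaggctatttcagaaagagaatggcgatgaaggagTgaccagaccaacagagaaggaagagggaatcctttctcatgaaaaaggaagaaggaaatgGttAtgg
Gm3248: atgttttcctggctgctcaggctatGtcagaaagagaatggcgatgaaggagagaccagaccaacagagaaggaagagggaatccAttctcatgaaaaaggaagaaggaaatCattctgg
Gm3526: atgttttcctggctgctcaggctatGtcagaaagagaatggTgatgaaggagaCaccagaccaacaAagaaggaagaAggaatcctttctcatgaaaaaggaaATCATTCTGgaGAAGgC
The first 4 sequences carried 1 to 3 capitals each. Gm3526 carried 19, most of them near the end of the window, where its bases are out of step with the others.

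Over whole transcripts the sharing was similar. Of all stretches of 50 bases in a model, a median of 88.8% also occurred in another annotated gene, from 48.8% in Gm3248 to 100%. A model shared such stretches with a median of 105 other genes. All 41 models fell into 1 connected group when pairs sharing at least 10% were joined. In contrast, the 38 other protein-coding genes of both stretches shared a median of 1.15%. Neither the read length nor the treatment of reads that fit several places is given in the sources used here. For that reason the count of any single model is uncertain, and the models are described together.

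In the 41 models, counts ran from 10 to 172 (median 53) in the knockdown library and from 22 to 242 (median 72) in the control library. Per length, the median level was 1.19 RPKM (CPM per kilobase of gene length) in the knockdown library and 1.61 RPKM in the control library. These are low levels, in which the 2 libraries overlap widely. The summed counts were 2476 and 3285, a log2 ratio of -0.50 (interval -0.57 to -0.42). Of the 41 ratios, 38 lay below 0, 21 had an interval wholly below 0 and none had one wholly above it. The counts of intervals have no background from all tested genes. The median was -0.52, with quartiles of -0.68 and -0.33. Models on the plus strand (20) had a median of -0.55 and those on the minus strand (21) a median of -0.47. The shift was thus small, and the medians of both strands lay below 0. The models share sequence, also between strands, so their counts may not be independent. Agreement between models or strands therefore cannot show that the shift is spread across the array.

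Gm2974 had the highest counts, 172 in the knockdown library and 242 in the control library, with a log2 ratio of -0.58. Gm3558 followed with 126 and 164 counts and a log2 ratio of -0.47. Gm3002 had 77 and 109 counts, a log2 ratio of -0.59. All 3 lay lower in the knockdown library by less than 2-fold. Gm3526 was the model called lower, with 10 and 25 counts and a fold of 2.66 (1.23 to 6.20). Its call rested on few counts, the lowest in the knockdown library among the 87 genes. It met the count minimum of 25 only in the control library, where it was higher. The choice of genes thus favoured a low ratio, and its call is not read as a result. 3 ratios were positive: Gm3248 had 33 and 22 counts (0.50), Gm3512 had 36 and 26 (0.38) and Gm3453 had 52 and 45 (0.12). All 3 intervals included 0. Another 65 genes outside the 87 shared 50-base stretches with the models, all of them on chromosome 14. They held 250 counts in the knockdown library and 307 in the control library in all, and only Gm2237 reached 25 counts (75 and 99, log2 ratio -0.49).

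**Figure D1:**
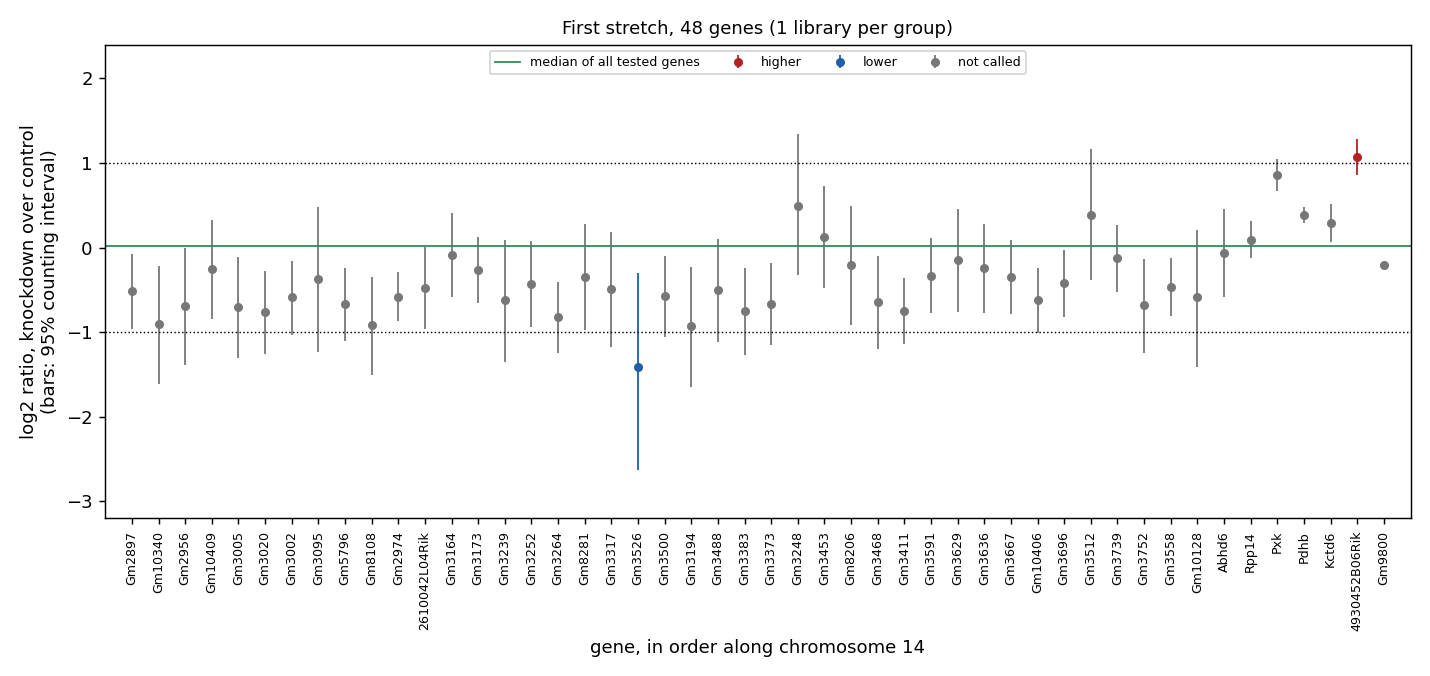
Log2 ratio of knockdown over control for 48 genes of the first stretch, in order along the chromosome, with 95% counting intervals as bars. The dotted lines mark 2-fold and the green line marks the median of all tested genes. The predicted models on the left lie mostly below 0, and the genes on the right reach up to 1.07 (4930452B06Rik).

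For comparison, 6241 tested genes elsewhere with summed counts in the range of the models had a median log2 ratio of -0.05, and 52.8% of them lay below 0. Calls were commoner in that group, at 8.52% higher and 17.4% lower, against 0 and 1 of 41 models. Other tested protein-coding genes with Gm names, 235 in all, had a median of 0.22. The models' median of -0.52 lay below both, and the difference was not tested.

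The other 8 genes of the first stretch, past 7.7 Mb, had a median log2 ratio of 0.19, and 3 of 8 lay below 0. Abhd6, a lipid hydrolase, had 65 and 64 counts, a log2 ratio of -0.07. Rpp14, a subunit of ribonuclease P, had 370 and 326 counts, a log2 ratio of 0.10. Neither differed beyond counting error. Pxk encodes a phox-homology protein with a kinase-like domain, and had 669 counts in the knockdown library and 348 in the control library. It was 1.81-fold higher (1.59 to 2.07), short of the call. Pdhb, the beta subunit of the E1 enzyme of pyruvate dehydrogenase, lies 878 bases from Pxk and had 2054 and 1483 counts. It was 1.30-fold higher (1.22 to 1.39). Its partner subunit gene Pdha1 had 4097 and 4071 counts, a log2 ratio of -0.08, and the 10 partner genes of the complex had a median of 0.14 with none called. Kctd6, an adaptor of cullin ubiquitin ligases, had 376 and 289 counts, a log2 ratio of 0.29.

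4930452B06Rik was the only gene of the 87 called higher. It had 603 counts in the knockdown library and 271 in the control library, or 8.78 and 4.19 RPKM, and was 2.09-fold higher (1.81 to 2.43). It lies on the minus strand at chr14:8431192-8666240 and the annotation lists it as protein-coding. Gm9800, at 8.8 Mb, is a processed pseudogene that shared 68.3% of its 50-base stretches with Ptma, the gene of prothymosin alpha. It had 7067 and 7703 counts, a log2 ratio of -0.21, and Ptma had 43892 and 43271, a ratio of -0.07. Reads from the shared part cannot be told apart.

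The second stretch held 31 protein-coding genes and 7 processed pseudogenes. None of the 38 was called higher and 5 were called lower (13.2%). Among all tested genes, 4.68% were called higher and 9.48% lower. The median log2 ratio was -0.35 (quartiles -0.73 and -0.15), and 30 of 38 lay below 0. The protein-coding genes had a median of -0.42 with 26 of 31 below 0, and the pseudogenes a median of -0.09 with 4 of 7 below 0. The ratios were not even along the stretch. The 16 genes before the position of Bmp4 had a median of -0.18 and none was called, and the 22 after it had a median of -0.53 and held all 5 calls. Of these calls, 4 fell in a run of 5 adjacent genes, picked out after its values were seen. The split at Bmp4 was not planned and falls just before this run, so nothing is read from the contrast between its sides. The other 17 genes after Bmp4 had a median of -0.42, with 1 called lower (5.88%).

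**Figure D2:**
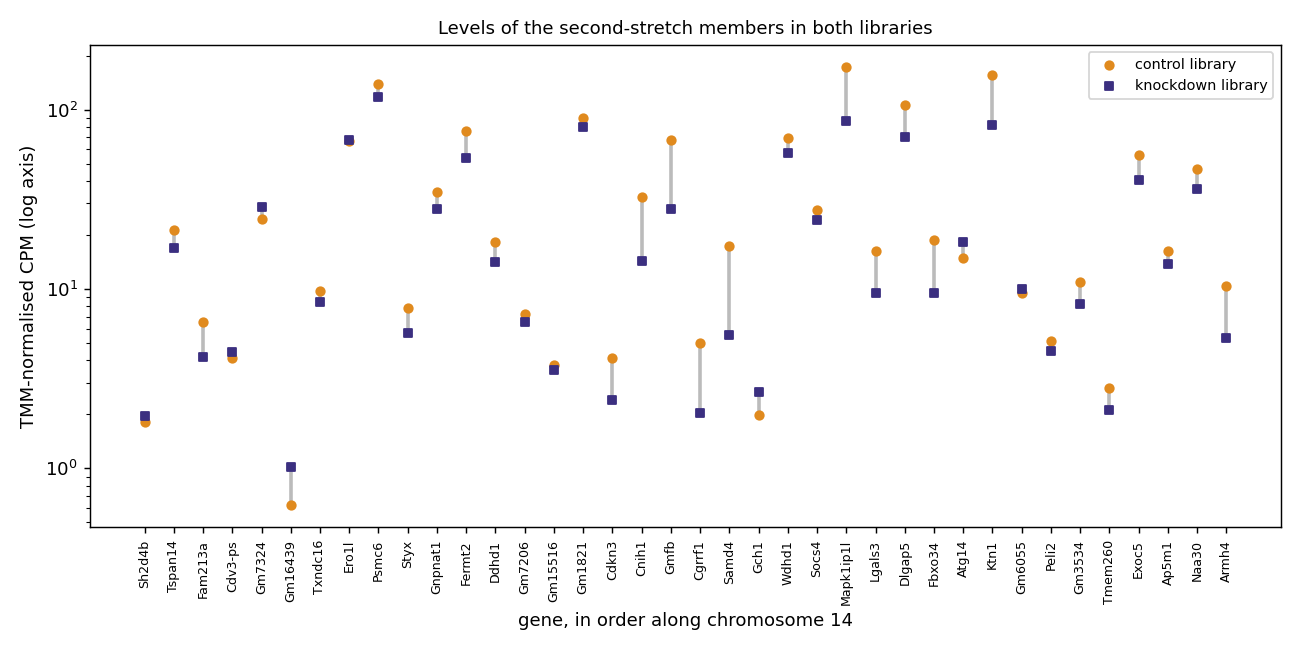
TMM-normalised CPM (log axis) of the 38 genes of the second stretch in the control (orange circles) and knockdown (dark squares) libraries, in order along the chromosome. From Cdkn3 to Samd4 the knockdown value lies below the control value in each of 5 genes, and in most genes before them the points lie close together.

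None of the 16 genes before Bmp4 was called. Sh2d4b, an SH2 adaptor gene, had 50 and 44 counts, a log2 ratio of 0.10. Tspan14, a tetraspanin that accompanies the protease ADAM10, had 432 and 515 counts (-0.34). Fam213a, a gene of a peroxiredoxin-like redox protein, had 107 and 157 counts (-0.64). The last was the lowest of the 16. Txndc16, a thioredoxin-domain protein of the endoplasmic reticulum (ER), had 217 and 234 counts (-0.20). Ero1l, the oxidase that renews disulfide bonds for ER folding, had 1744 and 1611 counts (0.03). The 7 folding partners elsewhere, among them P4hb, had a median of -0.27 with none called.

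Psmc6, an ATPase of the proteasome cap, had 2993 counts in the knockdown library and 3350 in the control library, and 74.7 and 88.8 RPKM. This was the highest per-length level of any gene in the second stretch that is not a pseudogene. Its log2 ratio was -0.25, within the range of the 5 other cap ATPases (-0.30 in Psmc3 to 0.24 in Psmc2, median 0.01). Styx, a pseudophosphatase, had 145 and 190 counts (-0.48). Gnpnat1, an acetyltransferase of the hexosamine pathway, had 717 and 842 counts (-0.32), and the 5 pathway partners had a median of 0.12. Gnpnat1 lies inside Styx on the opposite strand and shared 72.4% of its 50-base stretches with Styx transcripts, so their reads cannot be told apart without the strand.

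Fermt2 encodes kindlin-2, which activates integrins at sites of matrix contact. It had 1377 counts in the knockdown library and 1830 in the control library and was 1.41-fold lower (1.32 to 1.52). Ddhd1, a phospholipase, had 360 and 438 counts (-0.37). Both lay below the control level by less than 2-fold. Ratios of the pseudogenes are set beside those of the gene that shares most of their sequence. Gm1821 had a log2 ratio of -0.17 and its parent Ubb, a ubiquitin gene, -0.11. Gm7324, a Gm gene listed as protein-coding, had 0.22 and Rbmxl1, the gene it resembles most, 0.18. Cdv3-ps had 0.12 and Cdv3 -0.10, and Gm6055 had 0.07 and Map1lc3b 0.14. In the pair Gm7206 and Gm15516 the ratios were -0.15 and -0.09, and their parent Rpl9 had 0.19. Gm3534 (-0.42) resembled Gm2574 (-0.45) most. Gm16439, with 26 and 15 counts, shared all its 50-base stretches with other genes.

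Right after Bmp4, 5 adjacent genes from Cdkn3 to Samd4 had a median log2 ratio of -1.27, over 345 kb (chr14:46760541-47105815). They lie on both strands and have unrelated functions. Their summed counts were 1343 in the knockdown library and 3055 in the control library, a log2 ratio of -1.27 (-1.37 to -1.18). Because the run was picked for its low ratios, this value is a description. Its interval covers counting error only and takes no account of that choice.

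Cdkn3, a phosphatase that acts on cyclin-dependent kinases, opened the run with 62 and 99 counts. It was 1.70-fold lower (1.22 to 2.37) and was not called. Cnih1, a cargo receptor for export from the ER, had 369 counts in the knockdown library and 786 in the control library. It was 2.26-fold lower (2.00 to 2.57). Gmfb, glia maturation factor beta, which prunes branched actin, had 718 and 1630 counts. It was 2.41-fold lower (2.21 to 2.64). Cgrrf1, a RING ubiquitin ligase of the ER, had 52 and 120 counts. It was 2.45-fold lower (1.76 to 3.46), with a wide interval from the small counts. Samd4, the Smaug RNA-binding repressor of translation, had 142 and 420 counts. It was 3.14-fold lower (2.59 to 3.83), the lowest ratio of all 87 genes (log2 -1.65). The run thus held 4 of the 6 genes called lower.

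The limits of the run follow from its choice. Gch1, the first enzyme of tetrahydrobiopterin synthesis, ends 48.1 kb past Samd4 and had 68 and 48 counts. Its log2 ratio was 0.42, with an interval that included 0. Wdhd1, a replication factor that joins helicase and polymerase, and Socs4, a suppressor of cytokine signalling, start 74 bases apart on opposite strands. Wdhd1 had 1475 and 1677 counts (-0.27) and Socs4 had 618 and 665 (-0.19). These neighbours were alike, and nearer to the control level than the genes on either side. The 7 other SOCS family genes had a median of -0.23, and Socs3, a target of LIF signalling, had 0.66 with none of the family called.

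Mapk1ip1l starts 21335 bases past the start of Socs4 and was the remaining gene called lower. It had 2221 counts in the knockdown library and 4189 in the control library, or 18.8 and 37.7 RPKM. It was 2.00-fold lower (1.90 to 2.11), at the edge of the call, and was not called with DESeq2 size factors (log2 -0.96) or after thinning of the deeper library (-0.99). Past it, 3 genes came close to the call. Fbxo34, an F-box protein, had 243 and 453 counts and was 1.98-fold lower (1.69 to 2.32). Ktn1, the ER membrane protein kinectin that binds kinesin, had 2105 and 3765 counts and a log2 ratio of -0.93 (-1.01 to -0.85). Armh4, the last gene of the stretch, had 137 and 252 counts and was 1.95-fold lower (1.58 to 2.42). All 3 passed the call with scaling by total counts.

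Lgals3, galectin-3, which binds beta-galactosides, had 244 counts in the knockdown library and 391 in the control library. It was 1.70-fold lower (1.45 to 2.01). Galectins elsewhere went apart: Lgals1 was called lower with 1747 and 3829 counts and Lgals8 higher with 485 and 212. Dlgap5, a spindle protein also called HURP, had 1807 and 2554 counts. Its log2 ratio was -0.59 (-0.67 to -0.50). Mitotic partners went apart: Tpx2 had 6806 and 5135 counts and a log2 ratio of 0.32, while Ckap5 had -0.30, Cdk1 -0.28 and Aurka -0.07. The 8 mitotic and replication partners ran from -0.30 to 0.84 (Pola1), with a median of 0.10 and none called.

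Atg14, a subunit of the lipid kinase complex that starts autophagosomes, was higher in counts in the knockdown library, with 468 and 360. Its log2 ratio of 0.29 stood near the median of its 6 partners (0.27). It lies between Fbxo34 and Ktn1, the near-called genes above, and had the opposite sign. Peli2, a ubiquitin ligase of innate signalling, had 115 and 124 counts (-0.20). Tmem260, a membrane protein that adds mannose to receptors, had 54 and 68 (-0.42). Both intervals included 0.

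Exoc5, a subunit of the exocyst that tethers secretory vesicles, had 1035 counts in the knockdown library and 1351 in the control library (-0.47). This was below all 8 other exocyst genes, which ran from -0.35 (Exoc6) to 0.66 (Exoc6b) with a median of 0.21. Ap5m1, the medium chain of the AP-5 adaptor, overlaps the start of Exoc5 by 557 bases on the opposite strand. It had 354 and 392 counts (-0.23). Naa30, the catalytic subunit of the NatC N-terminal acetyltransferase, had 930 and 1119 counts (-0.35), and its partners Naa35 and Naa38 had 0.22 and 0.38. In these complexes the gene on chromosome 14 had the lowest ratio among the subunits, except in AP-5. No gene of the 3 complexes was called.

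**Figure D3:**
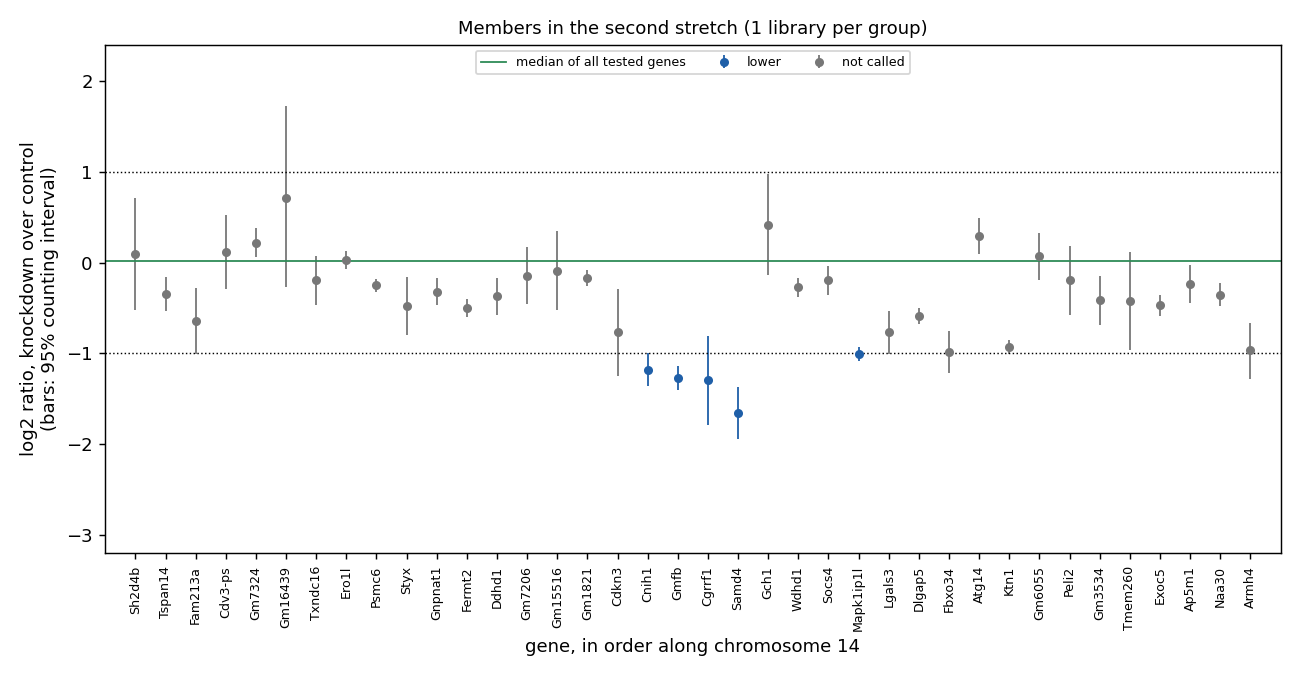
Log2 ratio of knockdown over control for the 38 genes of the second stretch, in order along the chromosome, with 95% counting intervals as bars. The dotted lines mark 2-fold and the green line marks the median of all tested genes. The 5 genes called lower are blue, 4 of them adjacent from Cnih1 to Samd4, and the ratio returns to 0.42 at the next gene, Gch1.

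By role, 35 of the 87 genes fell into 8 groups, and calls were thinly spread. The 5 genes listed as signalling held 2 calls (Samd4 and Mapk1ip1l), with a median log2 ratio of -0.48. Samd4 stood on that list although it encodes an RNA-binding protein, and 1 of the 4 others was called. The 6 genes of actin, adhesion and matrix contact held 1 (Gmfb; median -0.54), the 5 of the ER and secretory pathway 1 (Cnih1; -0.42) and the 5 of ubiquitin and the proteasome 1 (Cgrrf1; -0.25). No call fell among the 3 genes of cell cycle and chromosome (median -0.59), the 6 metabolic enzymes (-0.19), the 3 of trafficking and autophagy (-0.23) and the 2 of RNA and protein modification (-0.13). Among 76 partner genes outside the 87, in 13 lists, 3 were called lower and 1 higher. Of all tested genes, 9.48% were called lower and 4.68% higher. Role groups of 2 to 6 genes are too small to be set against those shares.

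The sequence upstream of each of the 5 genes called lower in the second stretch is shown, since 4 of these genes are neighbours. Log2 ratios of these 4 ran from -1.18 (Cnih1) to -1.65 (Samd4). Sequences are from RefSeq (GRCm38.p6), up to 250 bases before the RefSeq start, and end where the GENCODE gene begins. They are written 5′ to 3′ on the strand of the gene. Capitals mark matches on either strand to 6 motifs: the GC box GGGCGG, the motif CCAAT, the motif of ETS factors CCGGAAG, the E-box with letters CACGTG, the motif TATAAA of TATA boxes and the cAMP response element TGACGTCA.
Cnih1 (chr14:46788412-46788607, minus strand): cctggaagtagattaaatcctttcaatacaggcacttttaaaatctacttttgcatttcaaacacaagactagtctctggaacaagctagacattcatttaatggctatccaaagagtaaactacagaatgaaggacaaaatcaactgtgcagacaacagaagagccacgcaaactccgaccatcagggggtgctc
Gmfb (chr14:46822243-46822492, minus strand): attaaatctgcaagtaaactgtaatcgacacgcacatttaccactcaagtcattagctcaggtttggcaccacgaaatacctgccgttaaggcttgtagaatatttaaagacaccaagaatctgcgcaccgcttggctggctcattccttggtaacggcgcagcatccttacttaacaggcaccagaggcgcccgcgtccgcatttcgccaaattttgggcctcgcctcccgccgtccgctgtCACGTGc
Cgrrf1 (chr14:46831884-46832124, plus strand): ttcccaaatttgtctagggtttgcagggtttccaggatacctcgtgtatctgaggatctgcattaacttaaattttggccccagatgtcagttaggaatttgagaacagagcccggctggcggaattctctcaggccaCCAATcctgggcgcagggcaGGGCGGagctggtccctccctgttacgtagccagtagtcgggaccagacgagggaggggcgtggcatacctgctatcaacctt
Samd4 (chr14:46882715-46882853, plus strand): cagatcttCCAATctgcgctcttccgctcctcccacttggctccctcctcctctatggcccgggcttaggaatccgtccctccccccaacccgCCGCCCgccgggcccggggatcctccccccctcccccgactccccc
Mapk1ip1l (chr14:47298024-47298265, plus strand): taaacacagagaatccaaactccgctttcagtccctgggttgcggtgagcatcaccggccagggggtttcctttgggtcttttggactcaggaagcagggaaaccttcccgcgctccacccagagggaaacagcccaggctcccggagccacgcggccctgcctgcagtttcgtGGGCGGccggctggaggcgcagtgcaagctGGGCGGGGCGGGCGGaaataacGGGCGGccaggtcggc
Cgrrf1, Samd4 and Mapk1ip1l show a GC box, Gmfb an E-box and Cnih1 no match, so no motif of the 6 was common to the 5 windows as printed. The printed Cnih1 window leaves out the 54 bases nearest the RefSeq start. Over its full 250 bases Cnih1 does hold a GC box, and Gmfb, printed in full, does not.

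Promoters of 60 of the 87 genes were found in the RefSeq table by symbol. In the full 250 bases, a GC box occurred in 37 of these 60 (61.7%), in 22 of 28 from the second stretch (78.6%) and in 32.7% of all 32851 promoters. It occurred in 4 of the 5 genes called lower and in 18 of the 23 others of the second stretch. CCAAT occurred in 26.7% of the 60 and in 33.8% of all promoters, and in 2 of the 5 and 8 of the 23. The ETS motif occurred in none of the 5 and 7 of the 23, and in 6.91% of all promoters. The E-box occurred in 1 of the 5 and 2 of the 23, and in 6.02% of all promoters. TATAAA occurred in none of the 5 and 2 of the 23, and in 12.4% of all promoters. The cAMP response element was in none of the 60 and in 1.55% of all promoters. Median GC content was 66.8% in the 60 and 52.4% in all promoters. The 60 include promoters of near-identical models and belong to genes that passed the count minimum. All promoters were taken without a count minimum. The differences in motif share and GC content are therefore not read as a trait of the stretches. A match says only that these letters are present.

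**Figure D4:**
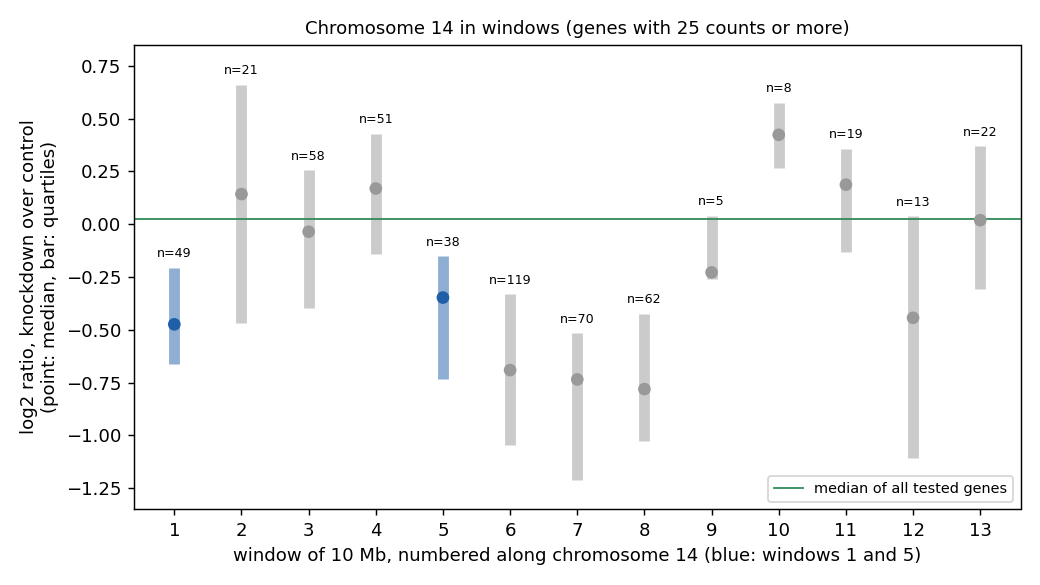
Median log2 ratio (points) and quartiles (bars) of genes with at least 25 counts in windows of 10 Mb along chromosome 14, with the number of genes per window. The windows described here are blue and had medians of -0.47 and -0.35, the 3 windows after the second had -0.69 to -0.78, and the 3 between them had -0.04 to 0.17.

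By their medians, -0.47 and -0.35, both stretches lay between the block and the pooled genes at 10 to 40 Mb and past 80 Mb. The share called lower did not follow that order. The 251 genes at 50 to 80 Mb had a median log2 ratio of -0.73, with 75 called lower (29.9%) and 92.0% below 0. The 130 genes at 10 to 40 Mb had a median of 0.07 with 43.1% below 0 and 8.46% called lower. The 67 genes past 80 Mb had a median of 0.04 with 14.9% called lower. The first stretch, with 2.04% called lower, was below both, and the second, with 13.2%, was between them. A median like those of the stretches was also found at 110 to 120 Mb, at -0.44, where 4 of 13 genes were called lower. Within the second stretch, 22.7% of the 22 genes after Bmp4 were called lower and 86.4% lay below 0, but without the run from Cdkn3 to Samd4 the share called lower was 5.88%, below the background of 9.48%. Within the first stretch the position of the median rested on the 41 models. Without them, the first stretch stood at 0.19 and both stretches together at -0.26, with 33 of 46 genes below 0.

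The limits of the stretches were set by position and not by a turn in the ratios. Just past 10 Mb, Ptprg had a log2 ratio of -0.57, 3830406C13Rik was called higher (1.22) and Thoc7 had -0.29. Just before 40 Mb, Cdhr1 was called lower (54 and 102 counts) and Ghitm had 0.51. Just past 50 Mb, Gm37194 (-1.04) and Ttc5 (-1.16) were called lower, while Gm10916 (0.09), Ccnb1ip1 (-0.65) and Rpph1 (-0.28) were not. At the count minimum, Gm3095 (23 and 28 counts), Gm3526 (10 and 25) and Gm16439 (26 and 15) were just inside. Gm3182 (14 and 17), Gm8113 (17 and 21), Gpr137c (16 and 8), Gm22637 (9 and 15) and Otx2os1 (4 and 15) were just outside. Of these, Otx2os1 met the rule for a call (-1.99), but it lay below 1 CPM in both libraries and was not a tested gene.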

How the data were processed

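The 2 libraries were made with a TruSeq RNA kit from Trizol extracts, per the labels' protocols. The tools named in the submitters' processing notes are featureCounts, HISAT2, Trim Galore and DESeq, and the builds GRCm38 and mm10. Neither versions nor the strand setting, read length or treatment of multiply mapped reads is given in the sources used here. In the deposited table the authors gave raw counts per gene beside a gene length. It held 26693282 counts in the knockdown library and 23146210 in the control library. Identifiers were matched to GENCODE M21 for 46488 of 46983 rows. The 495 others took 0.119% and 0.128% of counts and were kept in library sizes. No row was matched to linc1557, so the knockdown itself was not checked.

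TMM factors (0.960 knockdown, 1.04 control) came from edgeR 4.0.16 in R 4.3.3. Ratios and Clopper-Pearson 95% intervals were computed in Python 3.11.15 with scipy 1.17.1. A gene was tested at 1 CPM or more in either library, which all 87 genes passed, and 3 counts stood in for a count of 0 as a floor. RPKM used the deposited length. Intervals treat duplicate reads as separate molecules. The 87 genes, the gene lists and the rule for naming genes were chosen with earlier results of these data known. The rule named every gene with a role, called genes, the 6 most abundant, the ends of each stretch, rows next to the count minimum and partner genes. A gene that the rule names, with its partners, is not reported here. The calling script was tested on simulated data. Alternatives were size factors of DESeq2 1.42.0, scaling by total counts, TMM without chromosome 14, the deeper library thinned to the other's total, a prior count of 2, thresholds of 1.5-fold and 4-fold, count minimums of 10 and 100, no filter or one at 5 CPM, and protein-coding genes only. Centring by expression level in 20 bins and leaving out the near-identical models were added after seeing the data.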

Additional observations from a re-analysis of the deposited data

How the results depend on the processing

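With 1 library per group these values have no replicate check, and small counts limit most of the predicted models. Scaling by total counts moved the median of all tested genes to -0.10. It called 0 of the 87 genes higher and 12 lower, against 575 and 1815 of all tested genes. At 1.5-fold, 2 and 29 of the 87 genes were called higher and lower, and 1817 and 2598 of all tested genes. At 4-fold these numbers were 0 and 0, and 152 and 389. A filter at 5 CPM left 330 higher and 728 lower among all tested genes. A minimum of 10 counts raised the number of genes in the stretches to 104, with 12 called lower. The genes so added lay below the 1 CPM of a tested gene, so this number has no background beside it. Centring by expression level called 2 of the 87 genes higher, and 865 of all tested genes. Leaving out the near-identical models turned the median of the first stretch to 0.19, since 8 genes remained there. In all, 59 values of these counts and medians, those of 575, 1815 and 865 included, kept their direction or, for counts, stayed within 1.5 times.

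Single genes were followed for 45 of the 87, which left out most of the near-identical models. Of these 45, 4930452B06Rik was not called with total counts (0.95). Armh4 (-1.08), Fbxo34 (-1.10) and Ktn1 (-1.04) were called lower with total counts. Gm3526 was not called after centring by expression level (-0.96), and Ktn1 was then called lower. No paired analysis was possible because each group holds 1 library.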
